A study of Cucumis sativus with 11 samples.

Results

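Among the genes of cucumber leaves, 154 had less RNA under salt whether or not the plants also received silicon, and these genes are described here. They were chosen by measured values on the log2(RPKM + 1) scale, where RPKM is a read number corrected for the length of the gene and the size of the library. Every one of the 6 libraries from salt-treated plants had to lie below every one of the 5 libraries from plants without salt. The salt mean had to be at least 1 below the control mean, the salt plus silicon mean at least 1 below the silicon mean, and the salt plus silicon mean less than 0.5 above the salt mean. Of 20165 genes listed, 154 met all conditions, and all 154 were among the 17408 genes that passed the filter on low values (1 RPKM or more in at least 2 libraries) and were tested. On the salt-treated libraries alone, 132 of them would have passed it. The falls with salt are thus given as a description and carry no test.

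All plants were seedlings of the cucumber cultivar JinYou 1 in nutrient solution, and the study asked how silicon acts on salt-stressed leaves. The control group (3 libraries) received neither agent, the salt group (3) received 75 mM sodium chloride, the silicon group (2) received 0.3 mM silicon as sodium silicate, and the salt plus silicon group (3) received both. Treatment lasted 3 days, and each library came from 3 young, expanded leaves combined. Sodium silicate also brings some sodium, and no group here received that sodium without silicon.

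Salt in the root medium lowers the water available to a plant and loads its leaves with sodium and chloride. Leaves under salt are known to slow growth and photosynthesis and to change the RNA of many genes in both directions. Silicon is taken up by cucumber roots, carried to the shoot and deposited in leaves, and it is used to ease salt damage in crops. The deposited tables do not pair gene IDs with names. A reference table of 23999 genes held 0 of the 20165 IDs, so no function is given for any gene and genes stand by their IDs. Leaf identity could not be checked from marker genes for the same reason. In RNA from whole leaves, fewer cells of a type and less RNA per cell cannot be told apart. The libraries did not keep strand, so reads of overlapping genes on opposite strands are not separated.

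The silicon libraries stood apart from the rest before any gene was singled out. On the first principal component of all tested genes, which held 31.6% of the variance, they lay at -98.7 and -86.9, control 1 lay next to them at -45.4, and the other 8 libraries lay between -3.71 and 47.2. Summed RPKM was between 974471 and 1117426 per library, and between 1711 and 2397 genes were listed at 0. The read depth behind a value is unknown, since RPKM values hold no counts. Replicates were separate leaf samples.

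The median member stood at 25.3, 18.5 and 16.6 RPKM in control 1, 2 and 3 and at 28.8 and 32.4 RPKM in silicon 1 and 2. It stood at 5.15, 5.11 and 3.17 RPKM in salt 1, 2 and 3 and at 4.51, 5.17 and 3.80 RPKM in salt plus silicon 1, 2 and 3. By this median the silicon libraries were the highest, and all salt libraries were low to a like degree with and without silicon. The choice of members had limited how far the salt plus silicon mean could lie above the salt mean. Nothing is therefore read from the likeness of the salt libraries with and without silicon. The median of all tested genes lay between 9.14 and 13.4 RPKM in every library. Summed over the members, RPKM came to 0.946% ± 0.0212 (SD, n = 3) of the library's total in control, 1.26% ± 0.0586 (n = 2) in silicon, 0.278% ± 0.0449 (n = 3) in salt and 0.288% ± 0.0573 (n = 3) in salt plus silicon libraries. No overlap between the 6 salt and the 5 other libraries was part of the choice. Over all tested genes, 2.52% had this order.

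**Figure D1:**
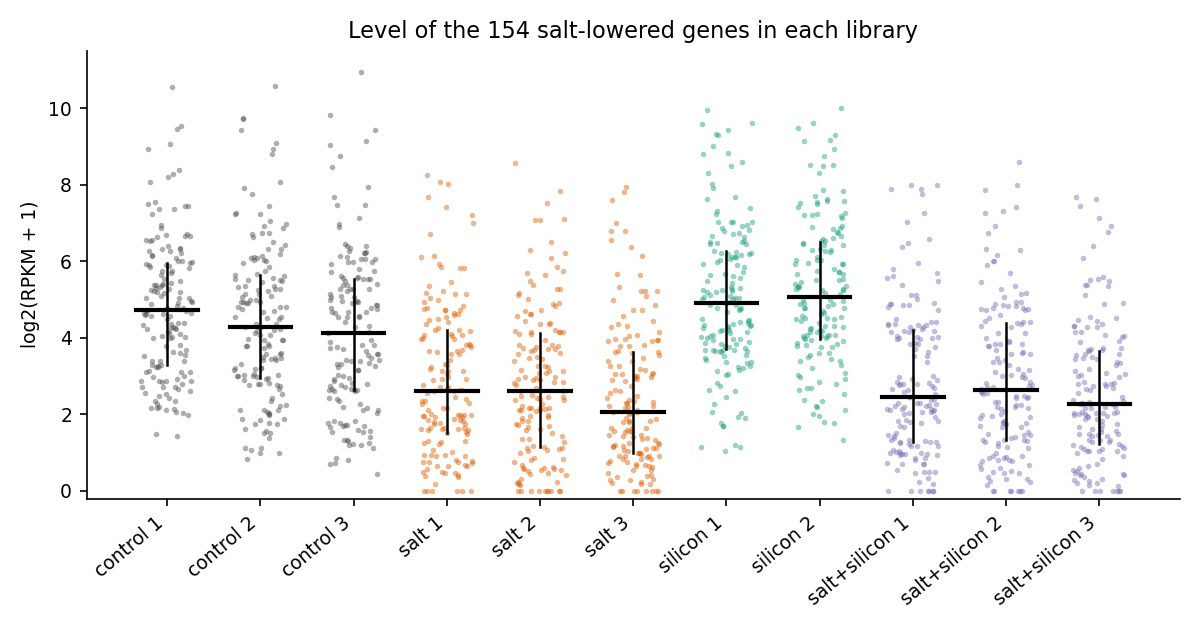
Level of each of the 154 genes, as log2(RPKM + 1), in each of the 11 libraries. Points are genes, thick bars are medians and thin bars span the quartiles. Medians lie between 4.13 and 5.06 in libraries without salt and between 2.06 and 2.62 in those with salt.

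The libraries of 1 group did not sit at one level. Salt 3 was the lowest of all 11 libraries in 57 of 154 members and salt plus silicon 3 in 30, while salt 1 was lowest in 18. Where several libraries tied at 0, the gene was counted for the first of them, so salt 1 shared the lowest place in some of its 18. Control 3 was the lowest of the 5 libraries without salt in 74 members, against 27 for control 2 and 10 for control 1. The highest value of a member came from silicon 2 in 48 genes, silicon 1 in 39, control 1 in 29, control 2 in 22 and control 3 in 16. The lowest library without salt exceeded the highest library with salt by a median of 0.42 on the log2 scale, with quartiles of 0.24 and 0.65 and a largest gap of 2.64. Within control, the SD of a member's log2 values had a median of 0.43, against 0.32 in all tested genes. The same medians were 0.46 against 0.30 within salt and 0.35 against 0.23 within salt plus silicon. Members had a median control mean of 22.3 RPKM, against 10.8 RPKM in all tested genes. In 18 members the control mean was 100 RPKM or more and in 51 it was under 10 RPKM.

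Zeros were few. At least 1 salt-treated library was listed at 0 in 20 members, and no member was at 0 in all 6 of them. The rule itself keeps libraries without salt above 0. In 14 members all 6 salt libraries were under 1 RPKM. Such genes fell further than the log2(RPKM + 1) scale shows.

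Without silicon, the salt mean lay below the control mean by a median of -1.57 on the log2(RPKM + 1) scale, with quartiles of -2.10 and -1.32 and a largest fall of -3.74. All tested genes had a median difference of 0.11. As a ratio of RPKM + 1, the fall was 4-fold or more in 43 of 154 members and 8-fold or more in 6. In RPKM itself the falls were larger, most of all in low genes, so more members may have fallen 4-fold. The fit over all genes called 108 members lower with salt (70.1%), against 3.00% of all tested genes. This contrast chose the members, so nothing is read from that share.

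Csa6G497240 had the largest fall among members without a zero in the compared groups. It stood at 56.5, 27.0 and 41.5 RPKM in control 1 to 3 and at 2.05, 3.48 and 1.11 RPKM in salt 1 to 3, a log2 difference of -3.74. With silicon it stood at 76.5 and 79.0 RPKM without salt and at 1.05, 2.16 and 2.29 RPKM with salt, a log2 difference of -4.83. Its lowest library without salt was far above its highest library with salt, the widest such gap of all tested genes. Csa2G000750 stood at 29.5, 30.8 and 26.5 RPKM in control and at 2.47, 2.54 and 1.98 RPKM in salt libraries, a log2 difference of -3.17. In this gene the silicon libraries, at 14.9 and 21.9 RPKM, lay below all controls. Its salt plus silicon libraries were at 3.82, 7.10 and 1.15 RPKM, and so lay on both sides of the salt libraries.

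The most abundant members fell in the same way. Csa2G055570 had the highest control level, with 1513, 1526 and 1957 RPKM in control and 269, 227 and 109 RPKM in salt libraries. Its silicon libraries, at 771 and 576 RPKM, lay between the controls and the salt libraries. Salt plus silicon libraries of Csa2G055570 were at 254, 153 and 173 RPKM, within the range of the salt libraries. Csa1G163160 stood at 334, 849 and 899 RPKM in control, with control 1 well below the others, and at 59.8, 135 and 81.2 RPKM in salt libraries. Its silicon libraries were at 986 and 1033 RPKM, above all controls, and its salt plus silicon libraries at 88.0, 120 and 28.3 RPKM.

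With silicon in the solution, the salt plus silicon mean lay below the silicon mean by a median of -1.86 on the log2(RPKM + 1) scale, with quartiles of -3.23 and -1.28 and a largest fall of -6.85. All tested genes had a median of 0.00 here. As a ratio of RPKM + 1, which understates the fall of low genes, it was 4-fold or more in 66 members. It was 8-fold or more in 41 and 16-fold or more in 19. By the same ratio, 22 members fell 4-fold or more both with and without silicon. The difference of these salt changes, with silicon minus without, was negative in 88 members (57.1%), close to the 59.3% of all tested genes. Its median was -0.08 on the log2 scale in members and -0.15 in all tested genes. It was under -1 in 51 members (33.1%) and over 1 in 7 (4.55%), against 13.8% and 5.64% of all tested genes, and the limits of the rule on both salt changes bear on these shares. Across the 154 genes the pair of falls correlated weakly (Pearson's r = 0.27, Spearman's rho = 0.23), over a range that the choice of members had cut. The fit called 117 members lower in this comparison (76.0%), against 7.26% of all tested genes, a share that the choice of members again fixes in large part.

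**Figure D2:**
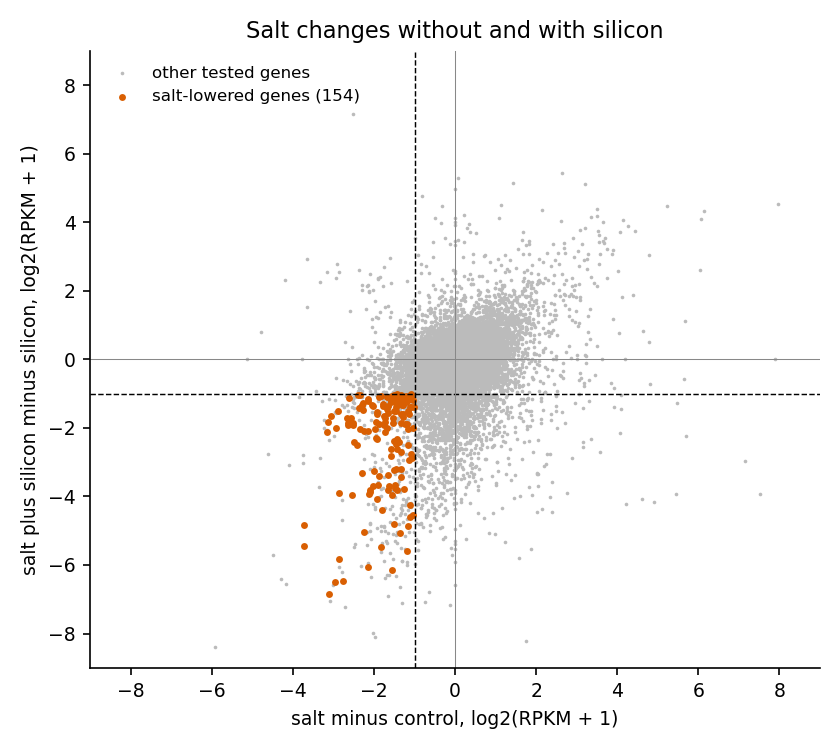
Salt minus control difference (x axis) against salt plus silicon minus silicon difference (y axis), both on the log2(RPKM + 1) scale, for all 17408 tested genes, with the 154 members in orange. Dashed lines mark the limits of -1, and grey genes beyond both limits failed the condition on overlap or the cap of 0.5. Members reach -3.74 on the x axis and -6.85 on the y axis.

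Csa7G432480 and Csa5G366670 had the largest falls in silicon-fed plants, which on this scale need high silicon values. Csa7G432480 stood at 359 and 182 RPKM in silicon 1 and 2 and at 0.738, 2.38 and 0.885 RPKM in salt plus silicon 1 to 3, a log2 difference of -6.85. Its controls were spread over 60.5, 15.8 and 5.18 RPKM, and its salt libraries were at 0.673, 2.02 and 0.967 RPKM. Csa5G366670 stood at 241 and 361 RPKM in silicon and at 2.59, 2.54 and 1.80 RPKM in salt plus silicon libraries, a log2 difference of -6.49. Its controls were at 80.9, 12.9 and 5.198 RPKM, again with control 1 the highest and control 3 the lowest, and its salt libraries at 2.56, 1.56 and 0.605 RPKM.

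Under salt, adding silicon left most members near the salt level, within the cap that the choice of members set. The salt plus silicon mean was above the salt mean in 98 members (63.6%, against 55.2% of all tested genes) and below it in 56, and the difference was under 0.5 in size in 145. Its median was 0.11 on the log2 scale, with quartiles of -0.09 and 0.29, against a median of 0.03 in all tested genes. After rescaling, 62 members lay below the salt mean by median-of-ratios scaling and 63 by quantile normalization. The medians of members were then 0.089 and 0.078, against 0 and -0.002 in all tested genes. The members had been chosen before rescaling, with a cap on this same difference, so nothing is read from these counts. Another 29 genes met every condition other than the cap and are not members.

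Csa3G902310 lay closest to the cap, at 0.49 on the log2 scale. It stood at 5.11, 2.36 and 2.10 RPKM in salt and at 5.98, 6.17 and 2.56 RPKM in salt plus silicon libraries, and these ranges overlapped. Its controls were nearly equal, at 30.2, 29.6 and 29.4 RPKM, and its silicon libraries were at 19.7 and 23.6 RPKM. Csa3G875410, a low gene, stood at 1.80, 1.68 and 0.768 RPKM in salt and at 2.52, 1.76 and 2.69 RPKM in salt plus silicon libraries. The ranges overlapped here as well, and the control and silicon libraries lay higher, between 3.85 and 11.03 RPKM.

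The opposite end held genes that were lower with both agents than with salt alone. Csa6G514860 stood at 56.0, 27.3 and 14.0 RPKM in salt and at 17.5, 58.6 and 3.97 RPKM in salt plus silicon libraries, a log2 difference of -0.71 between groups that overlapped widely. Its controls were at 78.7, 71.6 and 83.3 RPKM and its silicon libraries at 313 and 198 RPKM. Csa4G152270 stood at 11.3, 16.8 and 6.41 RPKM in salt and at 4.81, 8.05 and 7.07 RPKM in salt plus silicon libraries, a log2 difference of -0.65 with overlap. Controls of Csa4G152270 were at 29.1, 19.7 and 24.6 RPKM and its silicon libraries at 73.8 and 34.1 RPKM.

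**Figure D3:**
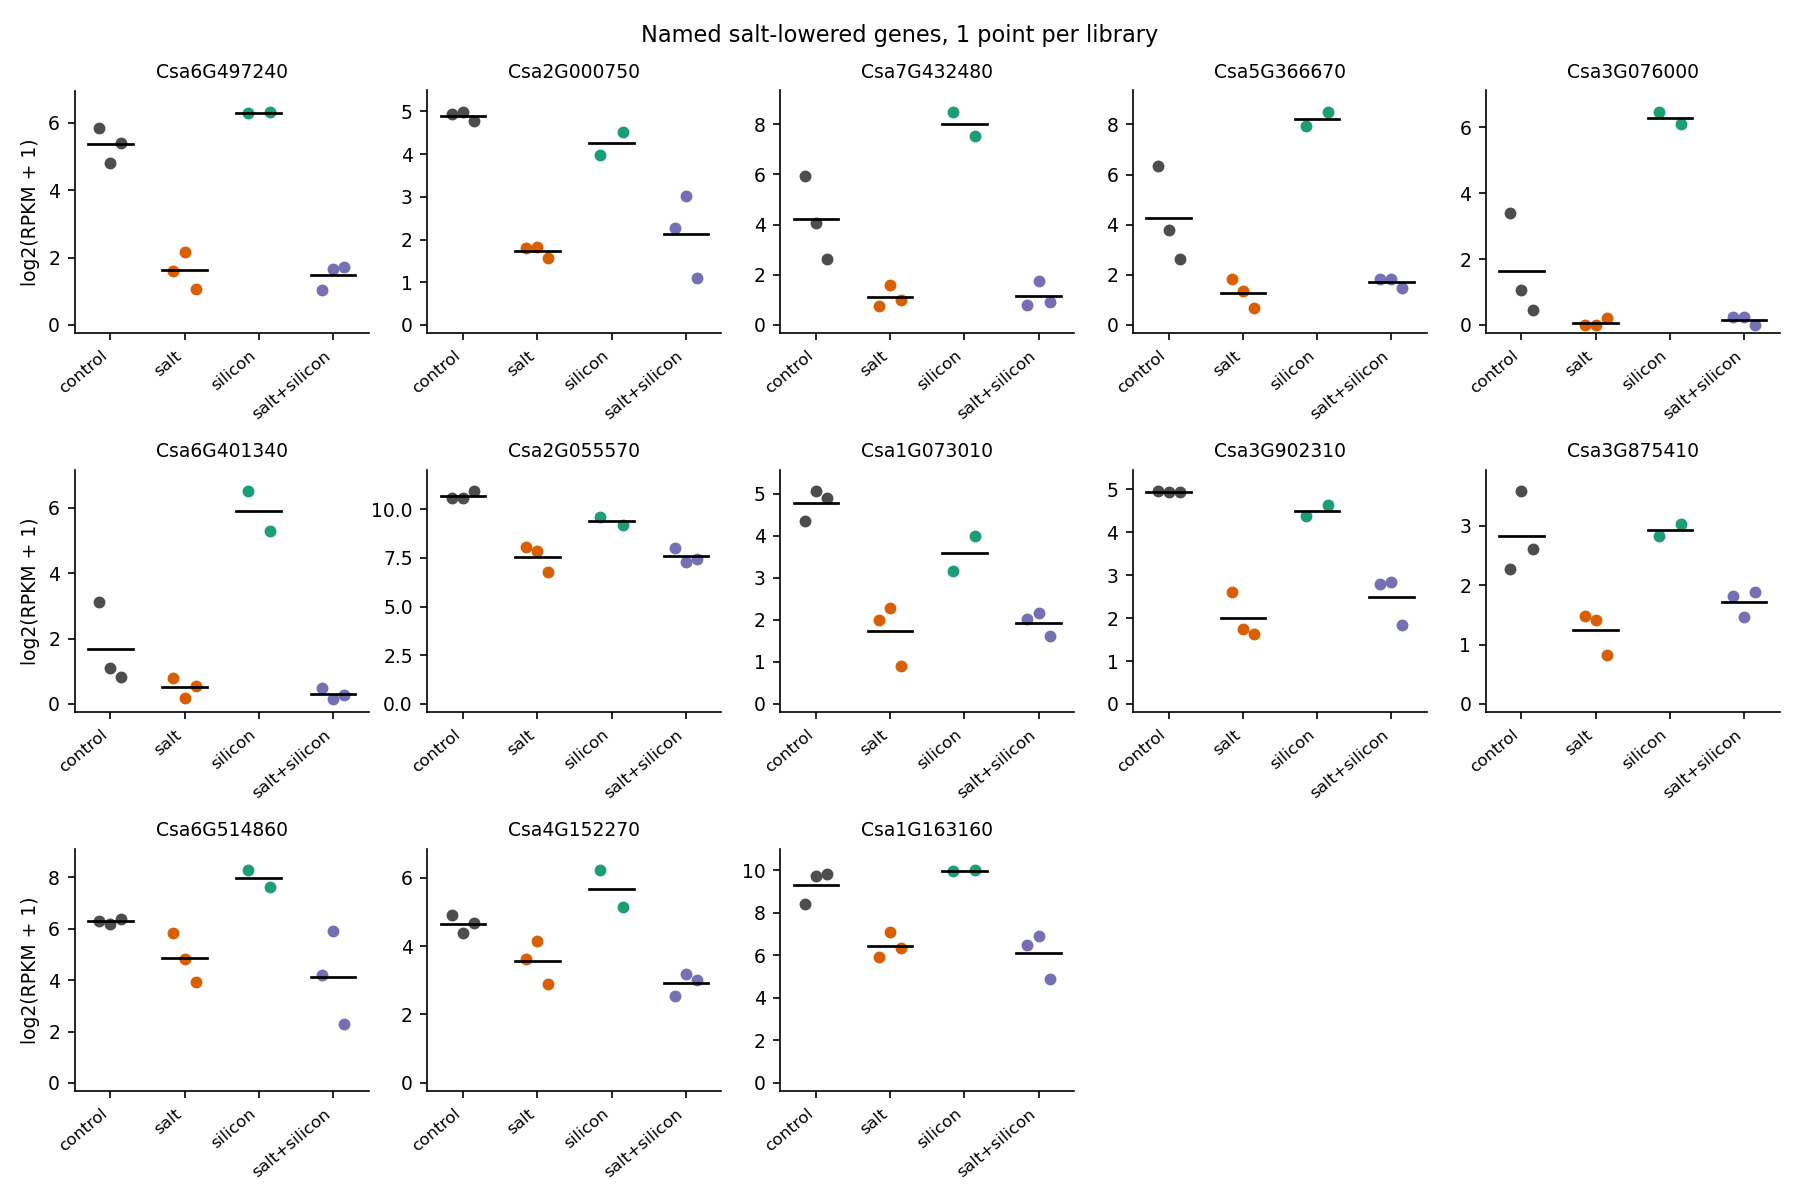
Level of the 13 genes named by rule, as log2(RPKM + 1), in the 4 groups. Each point is 1 library in order of replicate number and each bar a group mean. The salt and salt plus silicon points lie below all others in every panel, while the silicon points lie above the controls in some genes and below them in others.

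Silicon without salt was the comparison that the choice of members did not set directly. In limma's fit over all 17408 genes, 26 of 154 members differed between silicon and control, 25 higher and 1 lower (16.9%, 16.2% and 0.649%). Among all tested genes 9.36% were called, 8.38% higher and 0.977% lower. Genes with high silicon libraries meet the limit on salt plus silicon minus silicon more easily, so the share called higher is not free of the rule. At an unadjusted p under 0.05 there were 60 members (39.0%), against 26.2% of all tested genes. Both silicon libraries lay above all 3 controls in 56 members (36.4%) and below all of them in 18 (11.7%), close to the 30.4% and 11.9% of all tested genes. The silicon mean exceeded the control mean by over 1 on the log2 scale in 48 members (31.2%) and lay below it by over 1 in 5, against 12.3% and 2.69% of all tested genes.

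The calls depended on which libraries entered the fit, both for members and for all genes. The number of members called was 8 without silicon 1, 14 without silicon 2, 17 without control 3 and 13 without control 2, where 183, 874, 703 and 535 of all 17408 genes were called. A fit of the 5 control and silicon libraries alone called 1 member and 53 genes in all. Without control 1, the control nearest to the silicon libraries, it was 35, with 2501 of all genes. The median silicon minus control difference of members was 0.26 on the log2(RPKM + 1) scale, against 0.18 in all tested genes. With median-of-ratios scaling it was 0.07 against 0.01, and it turned to -0.05 against -0.09 after quantile normalization, so the direction of this median depended on the scaling.

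The 25 members called higher with silicon differed between controls as well. Their median stood at 9.57, 4.78 and 2.57 RPKM in control 1, 2 and 3 and at 51.6 and 64.4 RPKM in silicon 1 and 2. With salt it was 1.47, 1.09 and 0.667 RPKM, and with salt plus silicon 1.26, 1.42 and 1.14 RPKM. These genes were thus low in all 6 salt libraries, high in both silicon libraries and ordered from control 1 down to control 3 among the untreated plants. Control 1 exceeded control 3 in 25 of 25 of these genes, by a median of 1.55 on the log2 scale, and was the highest control in 24. Of the 128 members not called, control 1 exceeded control 3 in 93, with a median difference of 0.37. The order was not particular to the members: among all 1459 genes called higher with silicon, control 1 was above control 3 in 89.4%, with a median of 0.63, against 59.4% and 0.13 in all tested genes. The part of this spread between controls in the silicon calls was not tested.

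The 25 genes called higher had a median silicon minus control difference of 2.71 and a median salt plus silicon minus silicon difference of -4.39 on the log2 scale. Their salt minus control difference, with a median of -1.49, was close to the -1.59 of the 128 members not called. This likeness belongs to the log2(RPKM + 1) scale. In control and salt libraries the 25 were lower than the 128, and the added 1 shrinks a fall more at low levels. In those 128 the falls without and with silicon had like medians, -1.59 and -1.61. Single genes among them could differ in either direction. Csa6G514860 had differences of -1.44 without and -3.82 with silicon, and Csa1G073010 of -3.05 and -1.65. The median level of the 128 was 27.1, 24.8 and 24.4 RPKM in control and 26.2 and 27.9 RPKM in silicon libraries. It was 6.53, 6.49 and 4.05 RPKM in salt and 5.83, 6.94 and 4.55 RPKM in salt plus silicon libraries. Salt plus silicon minus salt had a median of 0.09 in the 25 and 0.12 in the 128. Since the division uses the silicon and control libraries, the different falls with silicon follow from it in large part.

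**Figure D4:**
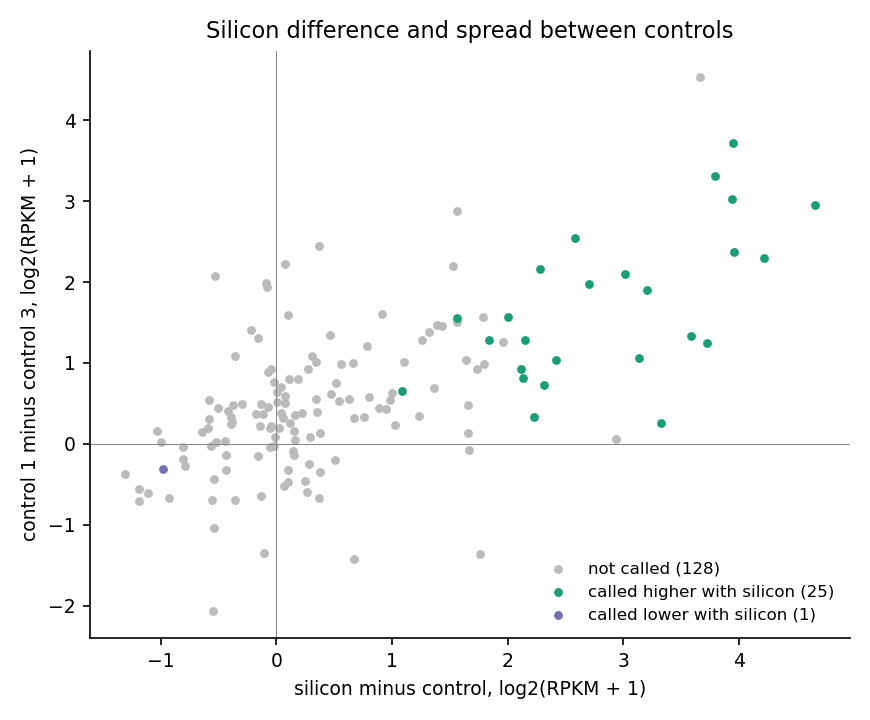
Silicon minus control difference (x axis) and control 1 minus control 3 difference (y axis) of the 154 members, both on the log2(RPKM + 1) scale. Green points are the 25 members called higher with silicon, the purple point is the 1 called lower, and grey points are the 128 not called. All 25 green points lie above 0 on the y axis.

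Csa3G076000 had the largest silicon minus control difference. It stood at 9.57, 1.078 and 0.361 RPKM in control and at 87.9 and 68.4 RPKM in silicon libraries, 4.66 ± 0.68 (SE) higher in log2 units (limma, adjusted p = 0.00557). It was listed at 0 in salt 1 and 2 and in salt plus silicon 3, and its other salt-treated libraries lay between 0.164 and 0.183 RPKM. Csa6G401340 stood at 7.66, 1.16 and 0.762 RPKM in control and at 90.6 and 38.0 RPKM in silicon libraries, 4.22 ± 0.62 higher (limma, adjusted p = 0.00573). All of its salt-treated libraries were under 1 RPKM, between 0.116 and 0.727 RPKM, and salt 1 nearly reached control 3. Silicon and control libraries did not overlap in either gene. Both calls were lost without silicon 1 (limma adjusted p = 0.0698 for Csa3G076000 and 0.0797 for Csa6G401340) and when the 5 libraries were fitted alone (0.123 and 0.122).

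Among the genes with the largest falls in silicon-fed plants, Csa7G432480 rose with silicon by 3.79 ± 0.79 (SE) in log2 units, with a limma adjusted p of 0.0198, and Csa5G366670 by 3.95 ± 0.85, with an adjusted p of 0.0219. For Csa7G432480 the call was lost without control 2, silicon 1 or silicon 2 (limma adjusted p = 0.0672, 0.198 and 0.0517) and in the fit of 5 libraries (0.159). For Csa5G366670 it was lost in the same fits (limma adjusted p = 0.0779, 0.146, 0.0958 and 0.174).

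The members lowest with silicon did not pass the test. Csa2G055570, the most abundant member, had a log2 difference between silicon and control of -1.31 ± 0.37 (SE; limma, adjusted p = 0.0555), although both silicon libraries lay below all controls. It passed after median-of-ratios scaling (limma adjusted p = 0.0402), with the 5 RPKM filter (0.0499), without salt 1 (0.0497) and without salt 3 (0.0238). Csa1G073010 stood at 19.4, 32.6 and 29.1 RPKM in control and at 7.97 and 15.1 RPKM in silicon libraries, a difference of -1.19 ± 0.43 (limma adjusted p = 0.115). It stood at 2.98, 3.86 and 0.870 RPKM in salt and at 3.08, 3.48 and 2.06 RPKM in salt plus silicon libraries, so the groups with salt overlapped fully. The 1 member called lower, named after its values were seen, was Csa3G121690, with 52.5, 69.9 and 65.5 RPKM in control and 31.8 and 30.4 RPKM in silicon libraries (log2 difference -0.98 ± 0.22, SE; limma, adjusted p = 0.0269). Csa3G121690 stood at 13.0, 12.3 and 9.48 RPKM in salt and at 18.5, 14.9 and 11.6 RPKM in salt plus silicon libraries, which overlapped.

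Of the other named members, Csa6G497240 had a silicon minus control difference of 0.95 ± 0.38 in log2 units (SE; limma, adjusted p = 0.148), Csa2G000750 of -0.65 ± 0.45 (0.397) and Csa1G163160 of 0.67 ± 0.62 (0.540). None of these passed the test, nor did the 4 genes named for their salt plus silicon minus salt difference, with limma adjusted p between 0.152 and 0.896.

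As a description, the rule was applied 11 times, each time without 1 library, and the place of that library was then counted. The libraries it was compared with had taken part in the choice, so the counts are no independent support for the fall. For a salt-treated library the count was of genes in which it lay below every library without salt, and for the others of genes in which it lay above every library with salt. Salt 1 did so in 138 of 173 genes chosen without it (79.8%), salt 2 in 145 of 175 (82.9%) and salt 3 in 148 of 149 (99.3%). Over all tested genes the shares were 18.2%, 10.6% and 22.2%. Salt plus silicon 1 did so in 168 of 182 genes (92.3%), salt plus silicon 2 in 170 of 189 (89.9%) and salt plus silicon 3 in 121 of 128 (94.5%), where all tested genes gave 14.4%, 9.89% and 14.7%. Each salt-treated library that had been set aside was below all libraries without salt in most of the genes chosen without it. Those libraries without salt had entered each choice as the high side, which by itself raises these shares.

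Among libraries without salt, silicon 1 lay above all salt-treated libraries in 159 of 187 genes (85.0%) and silicon 2 in 146 of 148 (98.6%), against 26.8% and 26.4% of all tested genes. Control 1 did so in 126 of 130 genes (96.9%) and control 2 in 158 of 189 (83.6%), against 23.6% and 13.7%. Control 3 did so in 162 of 325 genes (49.8%), against 18.0%, and 152 of the 154 members were among those 325. Without control 3 the rule thus found 325 genes, and in about as many of them control 3 overlapped the salt-treated libraries as not. The genes of each round were chosen for a wide separation of the other 10 libraries, which by itself raises these shares over those of all tested genes.

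In 7 of the 11 rounds the held-out library was nearer to the other group than the libraries of its own group that entered the choice. Salt 1 lay at a median of -1.22 from the control mean on the log2 scale in the genes chosen without it, where the mean of salt 2 and 3 lay at -1.59. Salt 2 lay at -1.33 against -1.53, and salt 3 further out, at -2.003 against -1.50. Salt plus silicon 1, 2 and 3 lay at -1.65, -1.52 and -1.96 from the silicon mean, against -1.93, -1.84 and -1.91 for the retained libraries. Control 3 lay at 0.70 above the salt mean, against 1.66 for control 1 and 2. Control 1 lay at 2.01 and control 2 at 1.31, against 1.61 and 1.57. Silicon 1 and 2 lay at 1.36 and 1.89 above the salt plus silicon mean, against 1.75 and 1.74 for the other silicon library.

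**Figure D5:**
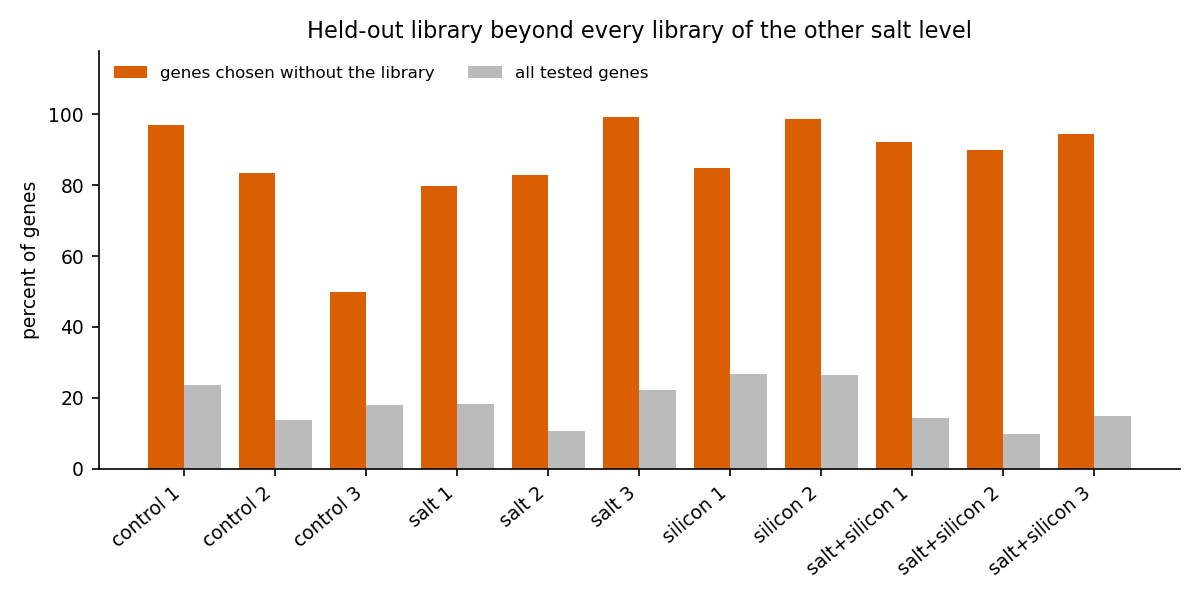
Percent of genes in which a held-out library lay beyond every library of the other salt level, for genes chosen by the rule without that library (orange) and all 17408 tested genes (grey). Orange bars stand between 79.8% and 99.3%, except 49.8% for control 3, and grey bars between 9.89% and 26.8%.

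The IDs of cucumber genes carry the number of a chromosome between Csa and G. Members were on all 7 chromosomes, with 42 of 154 on chromosome 3 (27.3%, against 21.0% of tested genes) and 7 on chromosome 7 (4.55%, against 10.1%). Chromosomes 1, 2, 4, 5 and 6 held 21, 22, 16, 21 and 25 members, between 0.762% and 1.03% of the tested genes of each. In the order of IDs, 10 members formed 5 pairs of direct neighbours in the deposited list, and no run was longer than 2. Where neighbours are copies of one another, reads may have been split between them, which the sources used here do not state.

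The limits of the rule had genes on both sides. For salt minus control, the last members inside were at -1.03 and -1.01 and the first genes outside at -0.98 and -0.98, all on the log2 scale. For salt plus silicon minus silicon they were at -1.012 and -1.002 inside and at -0.9992 and -0.970 outside, and for salt plus silicon minus salt at 0.48 and 0.49 inside and 0.50 and 0.53 outside. The narrowest gaps between the libraries with and without salt were 0.0016 and 0.0057 inside, and the nearest genes outside had a gap of 0.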

How the data were processed

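RNA was measured in 11 leaf libraries. The authors deposited 1 RPKM value per gene and library, per the file names. TopHat2 was among the tools, per the submitters' processing notes. Not given in the sources used here are its settings, the program that counted reads, the build and the gene annotation. RPKM values are not counts, so no count test was run, and depth and counting error are unknown.

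After transformation to log2(RPKM + 1), every gene that reached 1 RPKM in 2 or more libraries entered a test with limma 3.58.1 in R 4.3.3, as group means of all 11 libraries (7 residual degrees of freedom), moderated with a trend on the mean level and without a block. P-values are two-sided and were adjusted by Benjamini-Hochberg over 17408 genes, with a threshold of 0.05. The code was tested on simulated data. Tables and plots were made in Python 3.11.15 with numpy 2.4.6, pandas 2.3.3 and matplotlib 3.10.9.

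The members and tests were chosen with earlier results of these data known. Named genes are, without a zero in the compared groups, the 2 largest differences in each comparison and direction that a member can have, and the 2 highest control means. Lists of genes by product name could not be used, since no ID matched a name. Alternatives were other limits of the rule, leaving out each library, fitting the compared groups alone, a replicate block, robust moderation, quantile normalization or median-of-ratios scaling, a pseudocount of 0.1, and a 5 RPKM filter or none. Removing the cap of the rule, and leaving out members with a zero, were added after seeing the data.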

Additional observations from a re-analysis of the deposited data

How the results depend on the processing

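The rule found 154 genes, and between 171 and 193 with the smaller pseudocount, median-of-ratios scaling or quantile normalization, of which 131, 152 and 136 were among the 154 for these in turn. It found 304 genes with mean falls of at least 0.5, 62 with falls of at least 1.5, 362 by group means alone, 183 without the cap, and between 128 (without salt plus silicon 3) and 325 (without control 3) with 1 library left out. Under either rescaling all 154 members still fell in both salt comparisons. The rule had asked for falls of at least 1, so little could change here and nothing is read from it. The 26 members called for silicon against control were 19 with the smaller pseudocount, 23 without a filter, 26 with the 5 RPKM filter, after median-of-ratios scaling and with robust moderation, 23 after quantile normalization, 21 without members that had a zero, 1 in the fit of the compared groups alone, and from 8 to 35 with 1 library left out. The median difference of members turned to -0.050 after quantile normalization and ran from 0.20 to 0.37 with 1 library left out.

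Counts over all genes moved as well. For silicon against control, 1629 genes were called, 53 in the compared groups alone, 1031 with the replicate block, and from 183 (without silicon 1) to 2501 (without control 1), with 535 without control 2, 703 without control 3 and 874 without silicon 2. For salt against control, 523 were called lower, 840 after median-of-ratios scaling, 91 in the compared groups alone, and from 172 (without control 2) to 862 (without salt 2), with 263 without salt 1 and 183 without salt 3. For salt plus silicon against silicon, 1264 were called lower, and from 404 (without silicon 1) to 1436 (without control 1), with 821 when salt plus silicon 1 was left out, 772 when salt plus silicon 3 was, and 640 without silicon 2. The cause of these moves was not tested.

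Deviations of same-numbered libraries from their group means correlated between -0.20 and 0.16 across genes (15 pairs, median 0.06). Libraries of different number correlated between -0.16 and 0.25 (30 pairs, median -0.03). Deviations within groups this small depend on one another, so these values cannot settle whether replicate numbers pair the libraries. With the replicate block, 23 members were called for silicon against control, 21 of them among the 26. Over the other settings, the 13 named genes kept their side of the threshold for silicon against control in 231 of 247 values, 12 lost the call and 4 gained it. All 12 losses fell on Csa3G076000, Csa6G401340, Csa7G432480 and Csa5G366670, the only named genes of the 13 with a call to lose. All 4 gains were of Csa2G055570. Most values that kept their side thus came from genes that were not called. A fit without 1 silicon library assumes that the other varies like the remaining groups. With no depth, a low level cannot be told from 0.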
